A study of Mus musculus with 8 samples.

Results

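The blood vessels of the brain were followed in whole cortex through 9 genes of endothelial and mural cells: *Abcb1a*, *Abcg2*, *Flt1*, *Pecam1*, *Cldn5*, *Tek*, *Cdh5*, *Eng* and *Acta2*. Their probe sets were chosen by gene symbol, and the array annotation gave 10 of them, since *Flt1* had 2, among 12422 probe sets and 8251 genes in all. All 10 passed the filter on dim probe sets, which left 7453 probe sets and 5690 genes for the tests.

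Endothelial cells line every vessel, and in the brain they are sealed by tight and adherens junctions and carry pumps that return lipophilic compounds to the blood, which together make the blood-brain barrier. Mural cells wrap the endothelium, as contractile smooth muscle on arteries and as pericytes on capillaries. The junctions, the pumps and the growth factor receptors of the endothelium are widely used to follow this small cell population in brain RNA.

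Cortex of 8 individual mice was hybridised, 1 Affymetrix array per mouse, with 2 mice in each of 4 groups: WT at ZT4, WT at ZT16, S1/2-/- at ZT4 and S1/2-/- at ZT16. ZT is the time in hours after lights on, so that ZT4 fell in the light and ZT16 in the dark of the light-dark cycle under which all mice were group housed. The S1/2-/- mice lack both SHARP1 (*Bhlhe41*) and SHARP2 (*Bhlhe40*), which are basic helix-loop-helix repressors, in every cell and not only in vessels, and all mice were labelled as C57/bl6, 4 months old, with both genotypes bred from double heterozygous parents. The tissue was cortex of coronal slices behind bregma. In such bulk tissue, fewer vascular cells and less RNA per vascular cell cannot be told apart, and with 2 mice a group the spread within a group is poorly known.

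The probe set for *Bhlhe40* still gave signal in the S1/2-/- mice, and neither labels nor methods say whether it lies in the deleted sequence, so the genotype labels were not checked by it. Its signals, in MAS5 units, were 1074 and 983 in WT at ZT4, 1189 and 1285 in WT at ZT16, 913 and 834 in S1/2-/- at ZT4 and 1043 and 889 in S1/2-/- at ZT16. No probe set carried *Bhlhe41* as its only symbol, so its signal was not read. Across the 8 arrays the median signal lay between 186 and 206, and the 2 mice of a group correlated at r = 0.936 to 0.94 over the log2 signals of 12422 probe sets. Summed signals of the 8 tested myelin genes of oligodendrocytes lay at 17481 to 23433 in the WT mice and at 27052 to 30353 in the S1/2-/- mice, with 4 of these genes called higher in S1/2-/- cortex. Of 9 astrocyte genes 7 were higher in S1/2-/- mice and 1 was called, *Gfap*, the filament protein of reactive astrocytes, by 1.15 on the log2 scale (adjusted p = 0.00979 by limma), with *Slc1a2* and *Aqp4* at 0.70 and 0.65. Their summed signals overlapped between the genotypes, at 16837 to 19997 in the WT mice and at 18192 to 20092 in the S1/2-/- mice. This astrocyte sum is weighted to the bright *Aldoc* and *Gja1*, with genotype differences of -0.06 and 0.17, and can hide changes of dimmer genes. Summed signals of 3 genes of striatal neurons were 3749 and 4286 in WT at ZT4 and 6840 to 14285 in the other 6 mice. These differences run beside the vascular values below, and their part in them was not tested.

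The members were mostly of middling signal. The mean log2 signal of *Cldn5* stood at percentile 82.4 of all probe sets and that of *Eng* at percentile 77.4. *Tek* stood at percentile 47.5, *Cdh5* at 48.4, *Pecam1* at 50.2 and *Flt1* probe set 98453_at at 48.3, close above the filter at percentile 40. The bright genes varied less between mice of 1 group than the dim ones, with a within-group SD on the log2 scale of 0.12 for *Eng* and 0.18 for *Cldn5*, against 0.47 for *Tek*, 0.52 for *Pecam1* and 0.60 for 98453_at. *Abcb1a* had an SD of 0.13. Changes of *Eng*, *Cldn5* and *Abcb1a* were thus measured with less error than those of the dim junction and receptor genes. The summed signal of the 9 genes, 1 probe set a gene, ran from 3019 to 3563 over the mice. This sum is weighted to the bright *Cldn5* and *Eng* and leaves out 98453_at, so it can hide changes of single genes in opposite directions.

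**Figure D1:**
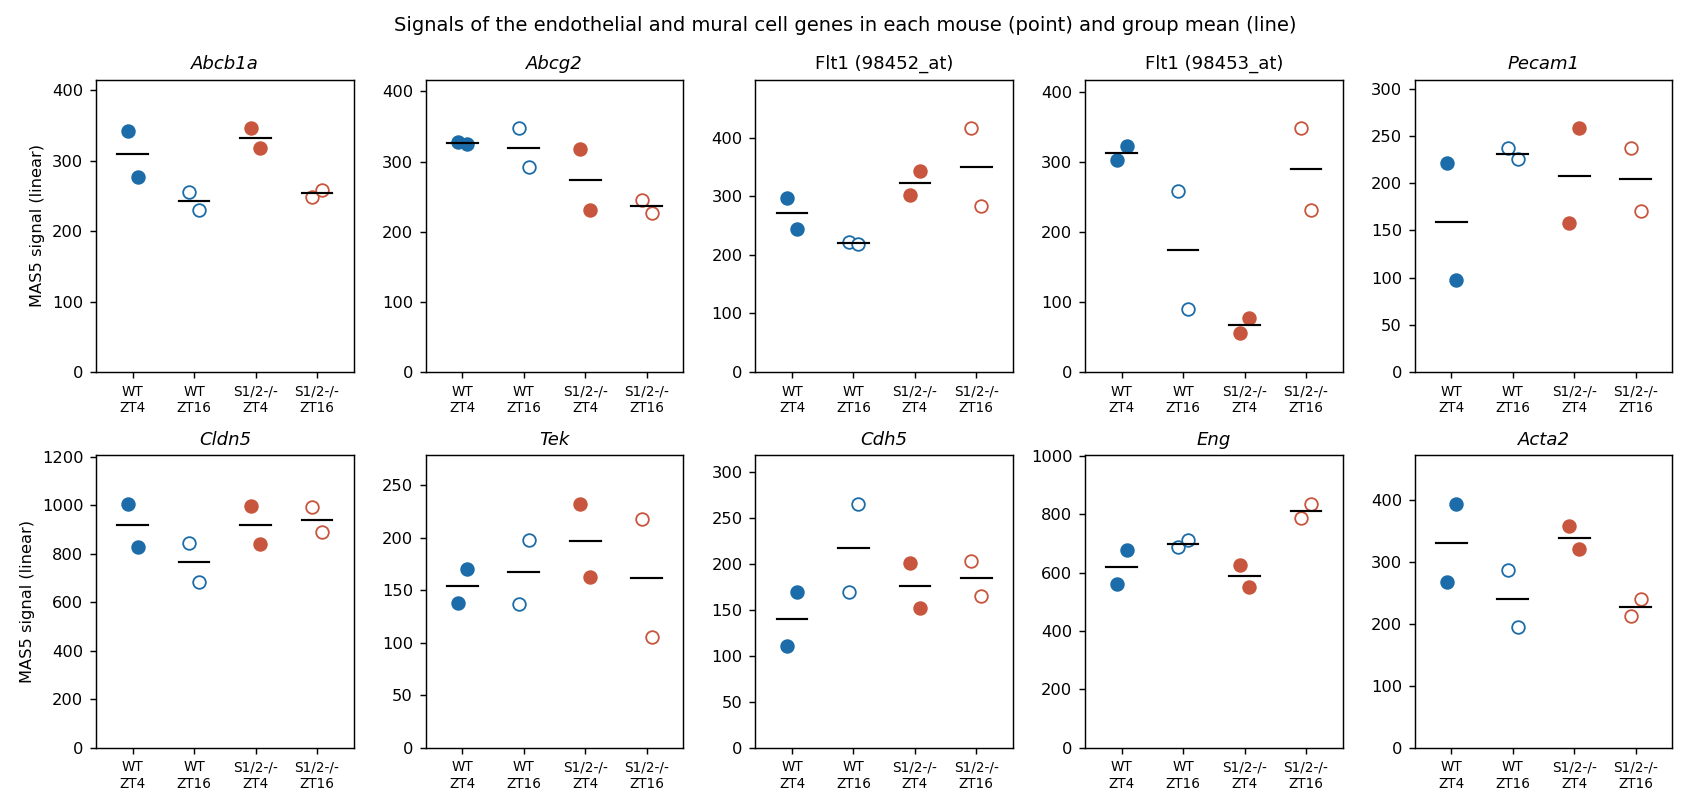
MAS5 signals (linear, each panel from 0 to its own maximum) of the 10 probe sets in each mouse, by genotype and time, with filled points for ZT4, open points for ZT16 and a line at the group mean of 2 mice. *Abcb1a* lay lower and *Eng* higher at ZT16 in both genotypes, and *Flt1* probe set 98453_at lay at 56.4 and 77.2 in S1/2-/- mice at ZT4 against 302 and 322 in WT.

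The comparison of ZT16 with ZT4 asks whether the vascular genes follow the time of day. Since the 9 genes were proposed with earlier results of these arrays known, their changes over time are a description, and the counts over the members below are printed beside their backgrounds with nothing read from them. No member probe set was called (fold change over 1.5 and Benjamini-Hochberg adjusted p under 0.05 by limma over all 7453 probe sets) with the genotypes averaged, against a background of 0% of all probe sets. At an unadjusted p under 0.05, limma listed 3 of the 10 probe sets, *Eng* higher and *Abcb1a* and *Acta2* lower at ZT16, against a background of 9.38%, and the unmoderated ANOVA listed 2. For *Eng*, *Abcb1a* and *Acta2* the adjusted p was 0.414, 0.488 and 0.446 by limma. Each of their averaged changes was also under the 1.5-fold threshold of a call. The unadjusted rule was met by 5.34% of all probe sets in the higher direction and by 4.04% in the lower direction.

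*Abcb1a*, which encodes the efflux pump P-glycoprotein of the barrier, was lower at ZT16 in both genotypes. Its signals were 342 and 278 in WT at ZT4, 255 and 231 in WT at ZT16, 346 and 318 in S1/2-/- at ZT4 and 248 and 259 in S1/2-/- at ZT16. All 4 mice at ZT16 lay below all 4 mice at ZT4. The fitted change was -0.37 ± 0.15 (SE) on the log2 scale with the genotypes averaged, or 1.29-fold lower, with -0.35 in WT and -0.39 in S1/2-/- mice. Leaving out any 1 mouse kept this change between -0.44 and -0.29.

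*Eng*, which encodes endoglin, a co-receptor for ligands of the TGF-beta family, went the other way. Its signals were 562 and 677 in WT at ZT4, 687 and 711 in WT at ZT16, 626 and 551 in S1/2-/- at ZT4 and 788 and 834 in S1/2-/- at ZT16. Again all 4 mice at ZT16 stood apart from all 4 at ZT4 and here above them, although in WT the margin was narrow (687 against 677). The fitted change was 0.32 ± 0.11 (SE) on the log2 scale with the genotypes averaged, or 1.25-fold higher, with 0.18 in WT and 0.46 in S1/2-/- mice. Leaving out any 1 mouse kept it between 0.26 and 0.39.

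*Abcb1a* and *Eng* were the only members of which the 4 mice at one time did not overlap the 4 at the other. Such separation was found for 5.06% of all tested probe sets, 2.78% higher and 2.28% lower at ZT16. Separation in the same direction within WT and within S1/2-/-, with no comparison across genotypes, was met by the same 2 members and by 9.55% of all probe sets, 4.94% higher and 4.62% lower. Within 1 genotype alone, with 2 mice against 2, separation was common. In WT 6 of the 10 probe sets met it (background 36%), with *Pecam1*, *Cdh5* and *Eng* higher (background 17.9%) and *Abcb1a* and both probe sets of *Flt1* lower at ZT16 (background 18%). In S1/2-/- mice 4 met it (background 41.4%), with *Eng* and *Flt1* probe set 98453_at higher (background 21%) and *Abcb1a* and *Acta2* lower (background 20.4%).

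*Acta2*, the alpha actin of arterial smooth muscle and the mural gene of the set, had the largest averaged change among the members' probe sets that had the same direction in both genotypes. Its signals were 269 and 394 in WT at ZT4, 288 and 195 in WT at ZT16, 359 and 321 in S1/2-/- at ZT4 and 214 and 241 in S1/2-/- at ZT16. The times did not overlap in S1/2-/- mice but did overlap in WT, where 1 mouse at ZT4 had 269 and 1 at ZT16 had 288. The fitted change was -0.52 ± 0.19 (SE) on the log2 scale, or 1.43-fold lower at ZT16, and lay between -0.66 and -0.38 with any 1 mouse left out.

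**Figure D2:**
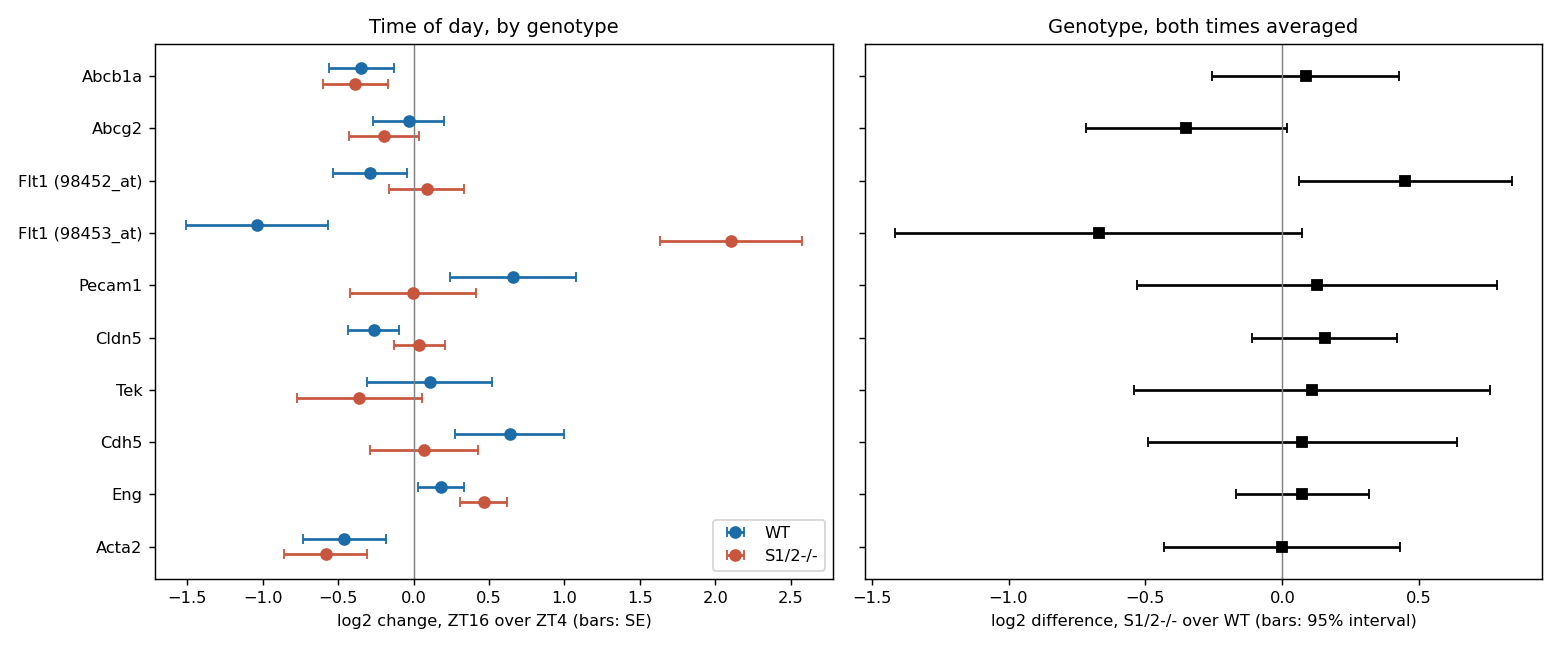
Left, fitted log2 change of each probe set from ZT4 to ZT16 in WT (blue) and in S1/2-/- mice (red), with bars for 1 SE and 2 mice a group. Right, fitted log2 difference between S1/2-/- and WT mice with both times averaged, with bars for the 95% interval. *Abcb1a* and *Acta2* lay below 0 and *Eng* above 0 in both genotypes, and 98453_at lay at -1.04 in WT and at 2.10 in S1/2-/- mice.

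The RefSeq promoters of the genes were read to show what sequence stands before the genes with the most regular time-of-day values, *Abcb1a* and *Eng*, and before *Flt1*, whose probe sets disagreed with each other. The windows run from 250 bases before to 50 after the start of transcription (build GRCm38.p6, 5′ to 3′ on the strand of the gene), and 7 of the 9 genes had at least 1 such window, 9 windows in all. *Abcb1a* was read at chr5:8566841-8567140 on the plus strand, *Eng* at chr2:32646345-32646644 on the plus strand and *Flt1* at chr5:147725962-147726261 on the minus strand. Capitals mark the core GGAA, or TTCC on the other strand, of sites bound by ETS factors, a family that includes regulators of endothelial genes.
Abcb1a: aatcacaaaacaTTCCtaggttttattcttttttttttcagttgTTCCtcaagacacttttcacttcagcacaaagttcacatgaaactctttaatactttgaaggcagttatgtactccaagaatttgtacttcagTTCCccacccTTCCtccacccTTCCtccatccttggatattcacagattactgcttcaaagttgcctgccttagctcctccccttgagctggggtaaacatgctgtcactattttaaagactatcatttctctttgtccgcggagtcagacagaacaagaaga
Eng: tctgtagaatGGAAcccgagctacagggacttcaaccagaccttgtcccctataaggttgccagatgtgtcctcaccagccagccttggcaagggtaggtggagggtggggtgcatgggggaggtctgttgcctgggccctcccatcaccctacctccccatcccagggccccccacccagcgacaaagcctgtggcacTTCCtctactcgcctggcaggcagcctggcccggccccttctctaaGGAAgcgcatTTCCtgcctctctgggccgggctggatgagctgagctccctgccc
Flt1: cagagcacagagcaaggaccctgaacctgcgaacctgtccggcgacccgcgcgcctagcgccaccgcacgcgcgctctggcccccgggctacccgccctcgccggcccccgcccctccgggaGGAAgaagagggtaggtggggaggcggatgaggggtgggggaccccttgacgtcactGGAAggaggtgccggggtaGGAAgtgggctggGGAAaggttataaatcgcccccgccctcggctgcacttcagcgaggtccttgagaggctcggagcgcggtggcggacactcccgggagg
The ETS core was found 5 times in the window of *Abcb1a*, 4 times in that of *Eng* and 4 times in that of *Flt1*. It was present in 8 of the 9 windows of these genes, all but that of *Cldn5*, and in 96% of 32851 promoters of the same length, so its presence is common to promoters at large. The E-box CACGTG, the motif through which the SHARP proteins and the clock factors bind DNA, was in 0 of the 9 windows and in 7.15% of all promoters, and the D-box TTANNTAA was in 0 of 9 and in 6%. The looser E-box CANNTG, which also includes CACGTG, was in 8 of 9 windows, all but that of *Flt1*, and in 72.3% of all promoters. Each motif was searched on both strands, and a match is a description of letters, not of binding. By base composition the windows were unlike each other, with 40.3% G and C and 2 CG dinucleotides for *Abcb1a* and 70.7% and 29 for *Flt1*.

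The other members, by role, showed changes over time that were smaller than their spread or unlike between the genotypes. *Abcg2*, the barrier's other main efflux pump, had a fitted change of -0.12 ± 0.16 (SE) on the log2 scale. *Cldn5*, the claudin that dominates endothelial tight junctions, had signals of 1005 and 829 in WT at ZT4, 846 and 682 in WT at ZT16, 998 and 838 in S1/2-/- at ZT4 and 993 and 889 in S1/2-/- at ZT16. The group means of *Cldn5* lay between 764 and 941, with overlap between the times in both genotypes and a fitted change over time of -0.11 (95% interval -0.38 to 0.15).

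*Cdh5*, the cadherin of endothelial adherens junctions, had signals of 110 and 169 in WT at ZT4 and of 170 and 265 at ZT16. In S1/2-/- mice the values were 201 and 152 at ZT4 against 203 and 165 at ZT16. The WT mice were thus separated by time, though narrowly (170 against 169), and the S1/2-/- mice were not. The fitted change was 0.64 ± 0.36 (SE) on the log2 scale in WT and 0.07 ± 0.36 in S1/2-/- mice.

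*Pecam1*, an adhesion molecule of the junctions between endothelial cells, had signals of 221 and 97.2 in WT at ZT4 and of 238 and 225 at ZT16. In S1/2-/- mice the values were 157 and 258 at ZT4 against 238 and 170 at ZT16. Its fitted change of 0.66 in WT rested on the single mouse with 97.2, and without that mouse it was 0.06. In S1/2-/- mice the times overlapped, with a change of -0.00.

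*Tek* encodes Tie2, the receptor for the angiopoietins. Its signals were 138 and 170 in WT at ZT4, 137 and 198 in WT at ZT16, 232 and 162 in S1/2-/- at ZT4 and 218 and 105 in S1/2-/- at ZT16. The groups overlapped in every comparison, and the fitted change over time was -0.13 ± 0.29 (SE) on the log2 scale.

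*Flt1* encodes a receptor for vascular endothelial growth factors that exists in a membrane-bound and a soluble form, and its probe sets gave unlike patterns. Probe set 98452_at had signals of 297 and 245 in WT at ZT4, 222 and 219 in WT at ZT16, 303 and 344 in S1/2-/- at ZT4 and 416 and 283 in S1/2-/- at ZT16. Probe set 98453_at had 302 and 322 in WT at ZT4, 258 and 89.7 in WT at ZT16, 56.4 and 77.2 in S1/2-/- at ZT4 and 348 and 231 in S1/2-/- at ZT16. The S1/2-/- mice at ZT4 therefore held the lowest values of 98453_at, below the 89.7 of 1 WT mouse at ZT16, while their values of 98452_at were among the highest.

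On the log2 scale 98453_at had a change from ZT4 to ZT16 of -1.04 ± 0.47 (SE) in WT and of 2.10 ± 0.47 in S1/2-/- mice, a difference of 3.14 ± 0.67. At ZT4 it was -2.24 ± 0.47 in S1/2-/- against WT mice. Probe set 98452_at had a change of -0.29 in WT and of 0.09 in S1/2-/- mice, and a difference of 0.26 between the genotypes at ZT4. The patterns of the probe sets across the 8 arrays had a Pearson correlation of 0.04 (given as a description), and the log2 signals of 98453_at separated the times in opposite directions in the genotypes, which 5.58% of all tested probe sets did.

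None of the 10 probe sets was called for the change over time in WT (background 0.0134%), for the change in S1/2-/- mice (background 0%) or for the difference between genotypes of these changes (background 0%). At an unadjusted p under 0.05, limma listed 0 of them in WT (background 7.61%), 2 in S1/2-/- mice (98453_at and *Eng*; background 7.31%) and 1 for the difference (98453_at; background 5.69%). The ANOVA listed 0, 3 and 1 and called none. The call of 98453_at for the difference depended on 1 mouse: without WT ZT16 replicate 1 it was 3.90, with an adjusted p of 0.0333 by limma. Neither labels nor methods say which transcript of *Flt1* each probe set reads.

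The comparison of genotypes asks whether the loss of SHARP1 and SHARP2 goes with another level of the vascular genes. With both times averaged, no member was called by limma, against 0.255% of all probe sets. At an unadjusted p under 0.05 limma listed 1 of the 10, *Flt1* probe set 98452_at, against a background of 12.4%, and the ANOVA listed and called none. No member had all 4 S1/2-/- mice apart from all 4 WT mice, which 7.18% of all tested probe sets did.

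*Flt1* probe set 98452_at was higher in S1/2-/- mice by 0.45 ± 0.17 (SE) on the log2 scale, or 1.36-fold (95% interval 0.06 to 0.84 on the log2 scale), with an adjusted p of 0.340 by limma. At each time both S1/2-/- mice lay above both WT mice, and only across times did 1 S1/2-/- mouse (283) fall below 1 WT mouse (297). Separation at 1 time, in either direction, was met by 39.4% of all tested probe sets at ZT4 and by 42% at ZT16. The share for both times together was not counted. With any 1 mouse left out the difference of 98452_at lay between 0.31 and 0.59. Probe set 98453_at pointed the other way, at -0.67 ± 0.33 (SE), with an adjusted p of 0.449 by limma.

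*Abcg2* was lower in S1/2-/- mice by the fit, at -0.35 ± 0.16 (SE) on the log2 scale, or 1.27-fold lower (95% interval -0.72 to 0.02 on the log2 scale), with an adjusted p of 0.427 by limma. Its signals were 328 and 324 in WT at ZT4, 347 and 293 in WT at ZT16, 318 and 231 in S1/2-/- at ZT4 and 246 and 227 in S1/2-/- at ZT16. At each time both S1/2-/- mice lay below both WT mice (such separation in either direction was met by 39.4% of all tested probe sets at ZT4 and 42% at ZT16). Across times 1 S1/2-/- mouse (318) lay above 1 WT mouse (293). With any 1 mouse left out the difference lay between -0.47 and -0.23.

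The intervals of the other members included 0. They were narrowest for *Eng* (0.07, 95% interval -0.17 to 0.32, adjusted p = 0.828 by limma) and *Cldn5* (0.15, -0.11 to 0.42, adjusted p = 0.629). For *Abcb1a* the difference was 0.09 (-0.26 to 0.43, adjusted p = 0.860 by limma) and for *Acta2* it was -0.00 (-0.43 to 0.43, adjusted p = 1.000). For *Pecam1*, *Tek* and *Cdh5* the differences were 0.13, 0.11 and 0.07 (adjusted p = 0.894, 0.907 and 0.932 by limma), with intervals that reached up to 0.79, 0.76 and 0.64, so that each interval included a level over 1.5-fold higher in S1/2-/- mice.

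Taken at each time alone, 3 of the 10 probe sets had both S1/2-/- mice apart from both WT mice at ZT4 (*Abcg2* and 98453_at lower, 98452_at higher) and 4 at ZT16 (*Abcg2* lower; 98452_at, *Cldn5* and *Eng* higher). With 2 mice against 2 this was common, met by 39.4% of all tested probe sets at ZT4 and by 42% at ZT16. No member was called at ZT4 (background 0.0939%) or at ZT16 (background 0.0134%), with 1 of 10 listed at an unadjusted p under 0.05 by limma at each time (backgrounds 7.29% and 10.9%) and 1 at each time by the ANOVA. At ZT4 98453_at was called only with WT ZT16 replicate 2 left out, a mouse that is not in the comparison at ZT4. The difference of -2.24 stayed the same, and what changed was the error, whose spread is estimated over all groups.

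The members did not move as 1 block. With 1 probe set a gene, the brighter of the pair for *Flt1*, 3 of the 9 genes were higher and 6 lower at ZT16, with a median log2 change of -0.11 against 0.00 for all 5690 tested genes. Of the 6, the averaged change turned sign with 1 mouse left out for *Abcg2* (without S1/2-/- ZT4 replicate 1), *Flt1* probe set 98452_at (without S1/2-/- ZT16 replicate 2) and *Tek* (without either of these or WT ZT16 replicate 1), so the count of lower genes rests in part on single mice. Between the genotypes 7 were higher and 2 lower in S1/2-/- mice, with a median of 0.09 against -0.00. This count too rests in part on single mice. Of the 7, *Pecam1*, *Tek* and *Cdh5* turned sign with 1 mouse left out, as did *Acta2* of the 2. *Flt1* counted as higher by 98452_at, while 98453_at was at -0.67. Over the 8 arrays the Pearson correlations of log2 signals between the 36 pairs of members ran from -0.78 (*Abcb1a* and *Eng*) to 0.67 (*Flt1* and *Cldn5*), with a median of -0.03 and 16 pairs above 0. Among the closest were *Abcb1a* with *Acta2* (0.64) and *Tek* with *Cdh5* (0.59). These are descriptions over 8 arrays that share groups, not tests.

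The genes whose log2 signals were most like the mean profile of the members were *Gabbr1* (Pearson correlation of 0.94 over the 8 arrays), *Cacng2* (0.91), *Mrpl21* (0.89), *Rras* (0.88) and *Cox6b2* (0.87). They include a subunit of the GABA-B receptor (*Gabbr1*), a regulator of AMPA receptors (*Cacng2*) and a protein of the mitochondrial ribosome (*Mrpl21*), and none of them was in the vascular lists. They were picked as the highest correlations among all tested genes outside the members, and over only 8 arrays that choice itself favours high values. The profile also averages members whose pairwise correlations had a median of -0.03, and shared regulation was not tested.

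A wider list of 129 other genes of vascular cells gave the setting of the members: 97 were on the array and 58 passed the filter. Several of the best-known were too dim to be tested, among the 39 of them *Kdr*, the main signalling receptor for vascular endothelial growth factor (signals 34.6 to 140), and *Abcb1b*, the close paralogue of *Abcb1a* (signals up to 90.8). Both were chosen here after their values were seen. Whether the *Abcb1a* probe set also binds *Abcb1b* transcript was not tested.

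Of the 58 tested genes, none was called for ZT16 against ZT4 with the genotypes averaged or for S1/2-/- against WT with the times averaged. For the time of day 33 were higher and 25 lower at ZT16, with a median log2 change of 0.05, and at an unadjusted p under 0.05 limma listed 5 higher (8.62%, against 5.34% of all probe sets) and 2 lower (3.45%, against 4.04%). For the genotype 29 were higher and 29 lower in S1/2-/- mice, with a median of -0.00, and limma listed 6 higher (10.3%, against 6.44% of all probe sets) and 3 lower (5.17%, against 5.94%).

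**Figure D3:**
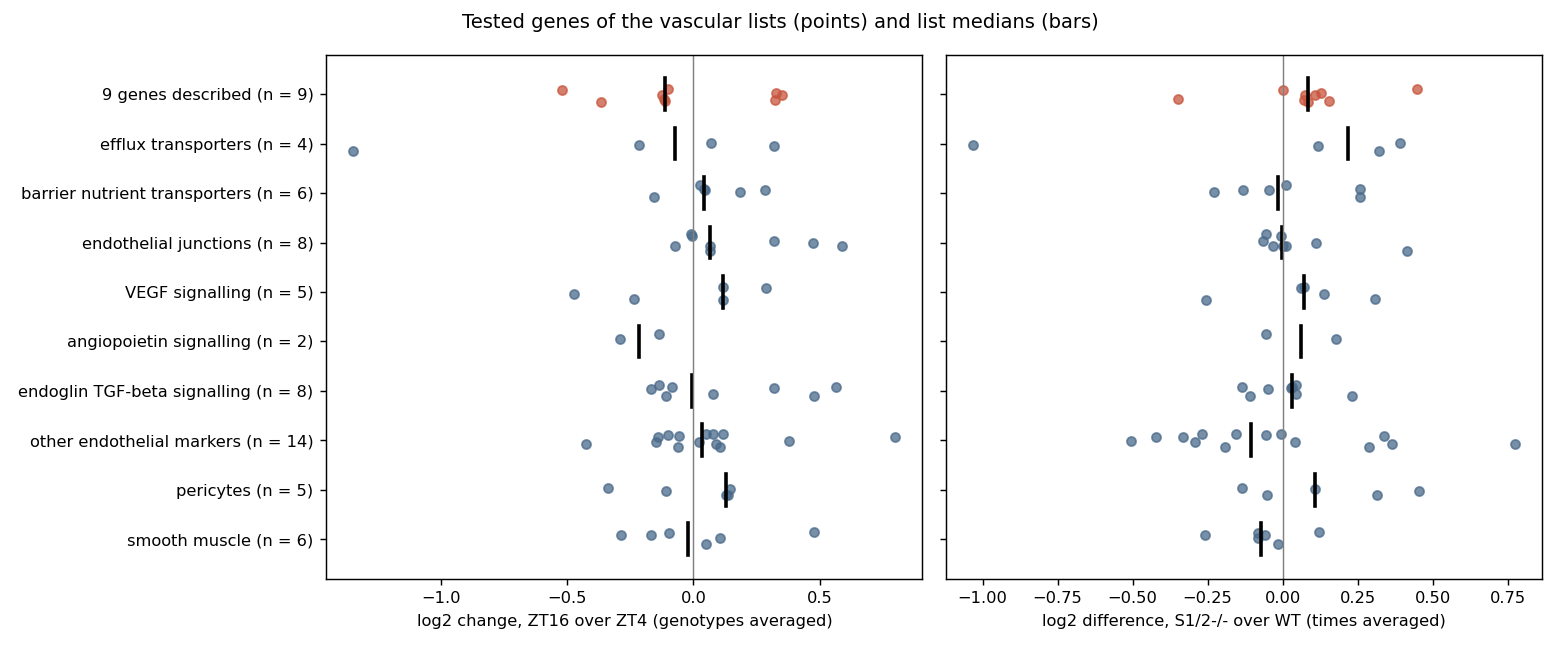
Fitted log2 change from ZT4 to ZT16 with genotypes averaged (left) and log2 difference between S1/2-/- and WT mice with times averaged (right) for each tested gene of the vascular lists (points), with the median of each list (bars) and the number of tested genes in brackets. The points lie on both sides of 0 in all but the list of 2 angiopoietin signalling genes at left, and the medians stay between -0.22 and 0.22.

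Among the pumps and carriers around *Abcb1a* and *Abcg2*, 4 efflux transporters were tested, of which 2 were higher and 2 lower at ZT16. *Abcc3*, an exporter of organic anions, was the extreme of the vascular lists, with a log2 change of -1.35 ± 0.42 (SE). Its signals were 182 and 369 in WT at ZT4, 168 and 59.5 in WT at ZT16, 293 and 345 in S1/2-/- at ZT4 and 215 and 75.4 in S1/2-/- at ZT16. It was lower at ZT16 within each genotype, but 1 of the mice at ZT16 in each genotype was far below the other. *Abcc5*, another exporter of the same family, had a change of 0.32 ± 0.14.

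By genotype, *Abca1*, the cholesterol exporter, was higher in all 4 S1/2-/- mice than in any WT mouse (log2 difference 0.39, adjusted p = 0.365 by limma). *Abcb4*, a phospholipid transporter, was lower in all 4 (-1.03, adjusted p = 0.368 by limma). Such separation was found for 3.43% of all tested probe sets in the higher and for 3.74% in the lower direction. Both margins were narrow, 368 against 355 for *Abca1* and 147 against 150 for *Abcb4*. The S1/2-/- signals of *Abcb4* were 108 and 82.6 at ZT4 and 147 and 35.5 at ZT16. Of the 6 tested nutrient transporters, 5 were higher and 1 lower at ZT16 and 3 were higher and 3 lower in S1/2-/- mice. *Slc2a1*, the glucose carrier of the barrier, had a log2 change over time of -0.05 in WT and of 0.42 in S1/2-/- mice, which differed by 0.48 ± 0.20 (SE; adjusted p = 0.850 by limma). Its averaged genotype difference of -0.23 (adjusted p = 0.384 by limma) was made up of -0.47 at ZT4 and 0.01 at ZT16. *Slc38a5*, a glutamine carrier, had a change of 0.28 over time, and *Tfrc*, the transferrin receptor, a difference of 0.26 between the genotypes (adjusted p = 0.371 by limma).

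Among the 8 tested junction genes around *Cldn5* and *Cdh5*, 5 were higher and 3 lower at ZT16. *Jup* (plakoglobin) and *Ctnna1* (alpha catenin), which link cadherins to the cytoskeleton, had all 4 mice at ZT16 above all 4 at ZT4, with log2 changes of 0.48 ± 0.15 and 0.32 ± 0.13 (SE). Such separation was found for 2.78% of all tested probe sets. The signals of *Jup* were 277 and 299 in WT at ZT4, 406 and 454 in WT at ZT16, 367 and 303 in S1/2-/- at ZT4 and 507 and 369 in S1/2-/- at ZT16. In S1/2-/- mice the margin of *Jup* was narrow (369 against 367). *F11r*, a junctional adhesion molecule, had all 4 S1/2-/- mice above all WT mice, as 3.43% of all tested probe sets did. Its log2 difference was 0.41 (adjusted p = 0.300 by limma). These catenins are also made by other cells of the cortex.

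Around *Flt1* and *Tek* stand the other receptors and the ligands of their pathways. Of 5 tested genes of VEGF signalling, 3 were higher and 2 lower at ZT16, with *Flt4*, another VEGF receptor, at -0.48 ± 0.30 (SE) and *Nrp1*, a co-receptor, at -0.24 on the log2 scale. The change of *Flt4* was -0.91 ± 0.43 (SE) in WT and -0.04 ± 0.43 in S1/2-/- mice, a difference of 0.88 ± 0.61. Its WT signals were 142 and 164 at ZT4 and 59.1 and 111 at ZT16, so that 1 mouse was far below the others. Between the genotypes *Nrp1* differed by 0.31 and the ligand *Vegfb* by -0.25, with adjusted p = 0.470 and 0.471 by limma. The angiopoietin list had only *Tie1*, the partner receptor of Tie2, at -0.29 over time, and *Ptprb*, the phosphatase that acts on Tie2, at -0.14.

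Around *Eng*, 8 genes of TGF-beta signalling were tested, of which 4 were higher and 4 lower at ZT16. *Id3*, a target gene of the BMP branch, and *Smad6*, an inhibitor of it, had log2 changes of 0.32 ± 0.13 and 0.57 ± 0.26 (SE). Both separated the times in each genotype, as 4.94% of all tested probe sets did in the higher direction. *Acvrl1*, the receptor that pairs with endoglin in endothelial cells, had a change of 0.44 in WT and of -0.28 in S1/2-/- mice, which differed by -0.72 ± 0.32 (SE; adjusted p = 0.868 by limma). The direction of *Eng* was thus that of 4 genes, with *Tgfb3* at 0.48 and *Acvrl1* on average at 0.08, and not that of the 4 others, with *Tgfbr3*, *Id1*, *Smad7* and *Smad1* at -0.17, -0.14, -0.11 and -0.09. *Tgfb3*, a ligand, had a difference of 0.23 between the genotypes.

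Of 14 other endothelial markers tested, 8 were higher and 6 lower at ZT16. *Thbd* (thrombomodulin, an anticoagulant receptor) had a log2 change of 0.80 ± 0.28 and *Car4* (a carbonic anhydrase of capillaries) of 0.38 ± 0.17 (SE). Between the genotypes 5 were higher and 9 lower in S1/2-/- mice, with a list median of -0.11. *Slc9a3r2*, a scaffold protein, had signals of 173 to 233 in the WT mice and of 293 to 400 in the S1/2-/- mice, with no overlap and a log2 difference of 0.78 (adjusted p = 0.141 by limma). Without WT ZT16 replicate 1 it was called, at 0.88 with an adjusted p of 0.0496 by limma. *Itm2a*, a membrane protein abundant in brain endothelium, had 1012 to 1093 in the WT mice and 1248 to 1417 in the S1/2-/- mice, again without overlap. The difference of *Itm2a* was 0.34 (adjusted p = 0.178 by limma). Separation of the genotypes in this direction was found for 3.43% of all tested probe sets. The lower genes included *Car4*, at -0.50 ± 0.17 (SE; adjusted p = 0.298 by limma), which was -0.72 at ZT4 and -0.29 at ZT16, and *Thbd*, *Emcn* (endomucin), *Cd34* and *Ramp2* at -0.42, -0.33, -0.29 and -0.27.

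Around *Acta2*, the pericyte list had 5 tested genes and the smooth muscle list 6. *Vtn* (vitronectin) had all 4 mice at ZT16 below all 4 at ZT4, as 2.28% of all tested probe sets did, with a log2 change of -0.34 ± 0.11 (SE). The change of *Rgs5*, a regulator of G protein signalling that marks pericytes, was -0.11. *Rgs5* had signals of 288 to 349 in the WT mice and of 384 to 508 in the S1/2-/- mice, with no overlap. Such separation was found for 3.43% of all tested probe sets. The log2 difference of *Rgs5* was 0.45 (adjusted p = 0.272 by limma), and that of *Mcam*, an adhesion molecule, was 0.31. Of the smooth muscle genes, 3 were higher and 3 lower at ZT16. *Tagln* (transgelin), a contractile protein like *Acta2*, had a log2 change of -0.29 and *Tpm2*, a tropomyosin, of 0.48, and between the genotypes *Myl9*, a myosin light chain, differed by -0.26 and *Tpm1*, another tropomyosin, by -0.08. The direction seen for *Acta2* was therefore shared by some and not by other genes of the contractile apparatus.

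Taking separation of the times in both genotypes as the measure, 6 of the 58 genes were higher at ZT16 (*Ctnna1*, *Jup*, *Id3*, *Smad6*, *Tgfb3* and *Thbd*) and 3 lower (*Abcc3*, *Cd93* and *Vtn*), against 4.94% and 4.62% of all probe sets. Over all 8 mice the times separated for 2 higher (*Ctnna1* and *Jup*) and 1 lower (*Vtn*), against 2.78% and 2.28% of all probe sets. Taking separation of the genotypes over all 8 mice, 6 were higher in S1/2-/- mice (*Abca1*, *F11r*, *Itm2a*, *Mcam*, *Rgs5* and *Slc9a3r2*) and 1 lower (*Abcb4*), against 3.43% and 3.74% of all probe sets. These genes were named after their values were seen.

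**Figure D4:**
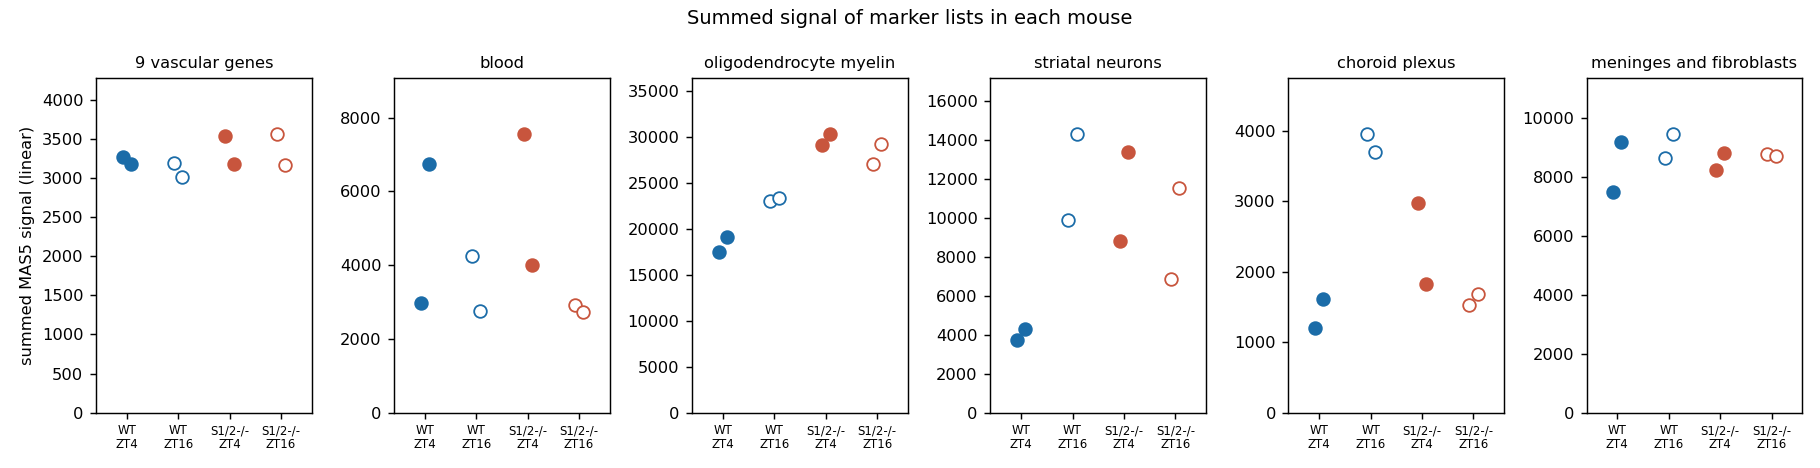
Summed MAS5 signal (linear, each panel from 0) of the 9 vascular genes and of marker lists of other cells in each mouse, with filled points for ZT4 and open points for ZT16. The vascular sum, which is weighted to the bright *Cldn5* and *Eng* and can hide opposite changes, lies between 3019 and 3563. The myelin sum is higher in all S1/2-/- mice, and the blood sum reaches 7553 in 1 mouse at ZT4.

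Blood, choroid plexus and meninges reach cortical samples along with vessels, and their marker lists were read beside the vascular genes. The summed signal of 3 blood genes was 2962 and 6746 in WT at ZT4, 4245 and 2746 in WT at ZT16, 7553 and 4004 in S1/2-/- at ZT4 and 2916 and 2716 in S1/2-/- at ZT16. It was thus highest in 2 of the mice at ZT4, and the globins *Hba-a1* and *Hbb-b2* had log2 changes over time of -0.66 ± 0.28 and -0.998 ± 0.29 (SE). The third gene, *Slc4a1*, the anion exchanger of red cells, went the other way, at 0.18 ± 0.33. The blood sum is weighted to *Hba-a1*, whose mean signal was 3511.5, against 594 for *Hbb-b2* and 130 for *Slc4a1*. At ZT4 in S1/2-/- mice the blood sums were 7553 and 4004 beside *Abcb1a* signals of 346 and 318, and in WT they were 2962 and 6746 beside 342 and 278. The part of blood in the time-of-day values was not tested.

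The choroid plexus list had 3 tested genes. Its transthyretin gene *Ttr* had signals of 2582 and 2412 in WT at ZT16. It had 1456 in 1 S1/2-/- mouse at ZT4 and 83.2 to 331 in the other 5 mice. *Igfbp2* and *Msx1*, the rest of the list, did not share this pattern. Their log2 changes over time were -0.01 and 0.68 in WT, against 3.91 for *Ttr*. In S1/2-/- mice they were -0.23 and 0.36, against -1.90. With both times averaged, the genotype differences were 0.37 and 0.01, against -1.43 for *Ttr*. The sums of the 9 vascular genes in the 3 mice with *Ttr* signals of 1456 or more were 3189, 3019 and 3539, which span most of the range over all mice. The summed signal of 11 genes of meninges and fibroblasts lay between 7491 and 9438 and overlapped between the groups, with 8 genes higher and 3 lower at ZT16. The part of these tissues and of the higher myelin and astrocyte signals in the genotype differences was not tested.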

How the data were processed

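RNA of cortex from 8 mice was hybridised to Affymetrix arrays, 1 per mouse, and the authors deposited 1 table of MAS5 signals, an intensity on a linear scale with 1 value per probe set. As deposited, each array had a mean signal of 500 after trimming 2% at either end; the build and MAS5 version are not given in the sources used here. RNA came from Trizol by the labels and from RNeasy columns by the methods. The 66 control probe sets of 12488 were left out. Gene symbols came from the platform annotation (10833 probe sets with 1 symbol, 396 with several, 1193 with none).

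Signals were set to at least 1 (64 were below), log2 transformed and kept where the mean was at or above percentile 40 (log2 6.8). Means of the 4 groups were estimated by limma 3.58.1 under R 4.3.3 (trended empirical Bayes, 4 residual and 6.02 prior degrees of freedom), with Benjamini-Hochberg adjustment over 7453 probe sets for each of 7 comparisons; a call needed a fold over 1.5 and an adjusted p under 0.05. These thresholds and the moderated statistics come from the study's methods, which used ANOVA over time. The fit was tested on simulated data. For lists, the brightest probe set stood for a gene.

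Members and lists were chosen with earlier results of these data known. All 9 members are named, and of each vascular list the 2 genes with the largest moderated statistic over time and the 2 by genotype; other genes were named after their values were seen. Samples were grouped by their titles, and the number of arrays limits the precision.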

Additional observations from a re-analysis of the deposited data

Results flagged for a closer look

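*Flt1* probe set 98453_at was singled out because its times separated in opposite directions in the genotypes, which 5.58% of all tested probe sets did. Both WT mice at ZT16 lay below both at ZT4, and both S1/2-/- mice at ZT16 lay above both at ZT4. The difference between genotypes of the log2 change was 3.14 ± 0.67 (SE), with an adjusted p of 0.465 by limma. Over the alternatives this adjusted p ran from 0.0333 to 0.936. The other probe set of the gene, 98452_at, had a difference of 0.38 ± 0.35 (SE). The signal of 98453_at over that of 98452_at in the same mouse was 1.02 and 1.32 in WT at ZT4, 1.16 and 0.409 in WT at ZT16, 0.186 and 0.224 in S1/2-/- at ZT4 and 0.836 and 0.819 in S1/2-/- at ZT16. With groups of 2 mice no single outlying mouse could be tested for.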

How the results depend on the processing

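The count of called members stayed at 0 in the 7 comparisons without the filter, with arrays quantile normalised or centred on their medians, with 16 added before the log2, without the intensity trend and with the unmoderated ANOVA, and in the 4 comparisons within 1 genotype or time when these were fitted alone. With any 1 mouse left out it lay between 0 and 1 for the difference between genotypes of the change over time and for S1/2-/- against WT at ZT4, both by *Flt1* probe set 98453_at. A filter at percentile 60 left only *Cldn5* and *Eng* to be tested, with 0 called. With the replicate block 0 members were called in each comparison; deviations of mice with the same number correlated at -0.00135 to 0.0982, so the numbers were not taken to pair the mice. With 1 mouse left out, the difference of S1/2-/- against WT changed sign for *Pecam1* (-0.17 to 0.42), *Tek* (-0.15 to 0.37), *Cdh5* (-0.088 to 0.23) and *Acta2* (-0.14 to 0.14), all close to 0 against their spread; the cause was not tested. The change over time with the genotypes averaged changed sign for *Tek* (-0.39 to 0.14), *Flt1* probe set 98452_at (-0.24 to 0.038) and *Abcg2* (-0.23 to 1.4e-05). Of the 10 probe sets, 2 changed sign so in WT, 6 in S1/2-/- mice, 4 for the difference of these changes, and 5 for S1/2-/- against WT at each time. A group reduced to 1 mouse was assumed to vary like the others. The signals are relative to each array's trimmed mean, and dim probe sets near the filter were the least precise. Calls over all 7453 probe sets, the background of the members' counts, moved more. With 1 mouse left out, those for S1/2-/- against WT with both times averaged (19) ran from 0 to 88, for S1/2-/- against WT at ZT16 (1) from 0 to 156, at ZT4 (7) from 0 to 14, for ZT16 against ZT4 in WT (1) from 0 to 100, with the genotypes averaged (0) from 0 to 36, and for the difference of the changes (0) from 0 to 17; all of these highest counts but that at ZT4 came without WT ZT16 replicate 1. In S1/2-/- mice they ran from 0 to 1. The settings that kept all mice gave 0 to 22, 0 to 6, 0 to 13, 0 to 10, 0 and 0 to 2 in the same order.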
